A study of Mus musculus with 17 samples.

Results

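The 4 genes of the Mef2 transcription factor family, Mef2a, Mef2b, Mef2c and Mef2d, were described by the open chromatin regions at their loci in neurons of the mouse nucleus accumbens. A region was taken as a member where it overlapped the GENCODE gene body of one of them extended by 20 kb on each side (mouse build mm10). Peaks of all 17 libraries that shared at least 1 bp were merged into 281189 regions, and the 147420 regions with a peak in at least 2 libraries of 1 group were kept. Of these, 86 lay at the Mef2 genes, with 16 at Mef2a, 18 at Mef2b, 41 at Mef2c and 11 at Mef2d. Before that filter the 4 loci held 196 regions, so 86 of 196 passed it, and a region called in a single group passed through that group.

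The study asked whether acute cocaine changes neuronal chromatin differently in males and in females at different estrous cycle stages. The libraries came from ATAC-seq, in which the Tn5 transposase cuts and tags accessible DNA, on NeuN+ (neuronal) nuclei sorted from bilateral nucleus accumbens of C57BL/6 mice (C57BL/6J in the study's methods) aged 52 to 54 days. The 6 groups were diestrus females, proestrus females and males, each without cocaine or 1 h after 10 mg/kg cocaine given intraperitoneally, with 3 libraries per group and 2 for males after cocaine. Each library pooled tissue from 3 animals. Controls received no cocaine, and the methods mention no vehicle injection for them, so the drug and the injection cannot be told apart. Diestrus cocaine library 2 carried its stage in its title only.

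MEF2 proteins are MADS-box transcription factors that bind an A/T-rich element as dimers. At rest they hold class IIa histone deacetylases and Cabin1 at their targets and repress them, and calcium entry, acting through calcineurin, calcium/calmodulin-dependent kinases and the MAP kinases ERK5 and p38, turns them into activators that recruit p300. In neurons they restrain the number of excitatory synapses, and in the accumbens they are known as part of the response to cocaine. Peaks in these data show where the genes that encode these factors are accessible, not how much of the factors is made or where they bind.

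The libraries held 75458 to 157005 peaks, with the fewest in the 2 libraries from males after cocaine (87707 and 75458 peaks) and the next fewest in diestrus cocaine library 3 (99789). The lowest fold enrichment of any peak was between 1.97 and 2.21 depending on the library, so a region without a peak lay under about that level and was not shown to be closed. Fold enrichment is the read pileup at a peak's summit over the background of the same library. The 5′ ends of the neuronal genes Rbfox3, Snap25 and Syt1 and of the medium spiny neuron genes Drd1 and Ppp1r1b were called in 17 of 17 libraries, and that of Adora2a in 16. The 5′ ends of Drd2 and Gad1 were called in 5 and 0 libraries. Cortical excitatory markers (Slc17a7, Neurod6, Tbr1) were called in 5, 5 and 8 libraries, Gfap in 14, Mog and Mag in 1 each, and the other 9 of the 12 glial, microglial and vascular markers in 0. With whole sorted nuclei, a lower signal from fewer cells with a region open and from less opening per cell cannot be told apart.

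The sequences just before the annotated start sites are shown first because the 4 genes differed in which of them were called. They are given 5′ to 3′ on the strand of the gene, from the RefSeq promoter windows of the same build, in the bases before the start that no annotated untranslated exon covers. The first Mef2c start and the second, 19.4 kb further into the locus, are both shown.
Mef2a promoter, chr7:67372859-67373108, minus strand: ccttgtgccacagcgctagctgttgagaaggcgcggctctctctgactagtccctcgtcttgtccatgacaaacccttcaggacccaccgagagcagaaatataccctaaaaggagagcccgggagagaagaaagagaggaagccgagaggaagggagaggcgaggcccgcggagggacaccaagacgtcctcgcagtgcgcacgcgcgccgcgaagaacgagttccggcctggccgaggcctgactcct
Mef2b promoter of the shorter transcripts, chr8:70152511-70152760, plus strand: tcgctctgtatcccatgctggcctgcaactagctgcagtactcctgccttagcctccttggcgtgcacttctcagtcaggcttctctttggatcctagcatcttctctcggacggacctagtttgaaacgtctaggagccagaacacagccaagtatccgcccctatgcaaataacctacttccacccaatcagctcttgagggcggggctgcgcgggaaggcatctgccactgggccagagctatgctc
Mef2c first promoter, chr13:83503784-83504033, plus strand: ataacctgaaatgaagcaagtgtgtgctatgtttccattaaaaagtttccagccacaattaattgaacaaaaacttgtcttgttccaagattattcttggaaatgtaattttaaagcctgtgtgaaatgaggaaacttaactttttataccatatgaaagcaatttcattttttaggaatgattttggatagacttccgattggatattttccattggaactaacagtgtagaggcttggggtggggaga
Mef2c second promoter, chr13:83523553-83523655, plus strand: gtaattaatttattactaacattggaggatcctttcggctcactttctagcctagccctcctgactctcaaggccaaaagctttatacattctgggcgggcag
Mef2d promoter, chr3:88142122-88142371, plus strand: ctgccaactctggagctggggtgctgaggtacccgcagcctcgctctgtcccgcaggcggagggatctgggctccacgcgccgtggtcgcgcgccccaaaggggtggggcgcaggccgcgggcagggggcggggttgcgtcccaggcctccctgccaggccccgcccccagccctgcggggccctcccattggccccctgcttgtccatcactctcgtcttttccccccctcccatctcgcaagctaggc
The G+C share was 61.6% for Mef2a and 73.2% for Mef2d, and 33.6% for the first Mef2c start.

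Mef2a (chr7:67231163-67372858, minus strand) and Mef2d (chr3:88142372-88172086, plus strand), the broadly expressed members of the family, were each open at the annotated 5′ end in every library. At the Mef2a start the peak that covered it had a fold enrichment of 8.003 to 17.003 over the 17 libraries, with a median of 12.4. The Mef2d start lay in a region of 23.4 kb that was open in all 17 libraries, at 21.02 to 39.3 and a median of 28.3. Neither promoter separated any pair of groups by its calls, since both were called everywhere. Regions below are named by their gene and the distance in kb of their summit from the 5′ end of the gene, positive in the direction of transcription.

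Mef2c (chr13:83504034-83667080, plus strand), the member with the clearest role in forebrain neuron development, had peaks at an internal promoter and none at its annotated 5′ end. No library had a peak over the first start cluster (0 of 17), whereas all 17 had a peak over the cluster at +19.4 kb. The fold enrichment there was 10.1, 9.94 and 11.2 in the 3 diestrus controls and 15.4, 18.49 and 13.4 after cocaine in diestrus. It was 10.0, 11.3 and 10.3 in the proestrus controls and 13.7, 11.98 and 12.04 after cocaine in proestrus. In males it was 13.5, 16.4 and 16.03 in controls and 10.2 and 10.2 after cocaine. The values after cocaine therefore lay above every control value in both female stages and below every control value in males. Relative to the other regions of the same library, by the limma comparison described further on, the difference was 0.57 on the log2 scale in diestrus (adjusted p = 0.0109), 0.15 in proestrus (adjusted p = 0.571) and −0.10 in males (adjusted p = 0.735), so only that in diestrus passed. The start at +149 kb, near the 3′ end of the gene, was covered in 16 libraries at 2.84 to 6.92, and the starts at +71.1, +122 and +129 kb in none.

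Mef2b (chr8:70139711-70167488, plus strand) is the member with the narrowest known expression, and its locus overlaps several other genes. Its annotated 5′ end lay in a region shared with the starts of Borcs8 and Rfxank, open in all 17 libraries at 23.9 to 49.1. The start of the shorter Mef2b transcripts, at +13.1 kb, lay in a region of 443 bp that was called in 8 libraries (Mef2b +13 kb). The fold enrichment there was 3.10, 2.57 and 2.80 in the 3 diestrus controls, 3.57, 3.72 and 3.18 in the 3 male controls, 3.02 in 1 proestrus control and 3.09 in 1 library from diestrus after cocaine. All 5 of the other libraries from females after cocaine and both from males after cocaine had no peak, so the region was called in 7 of 9 controls and 1 of 8 libraries after cocaine. Fisher's exact test on these counts gave p = 0.0152 (two-sided) and an adjusted p of 0.278 over the 64304 regions called in 4 to 13 libraries, so the difference did not pass. Of the 45 Mef2 regions in that test 0 passed, nor did any region of the whole set. At an unadjusted p under 0.05 it gave 3 Mef2 regions called less often after cocaine (9.23% of all regions) and 0 called more often (3.81%). The other 2 were Mef2d −8.92 kb, called in 8 of 9 controls and 2 of 8 libraries after cocaine (adjusted p = 0.278 by Fisher's exact test), and Mef2d +39.3 kb, in 6 and 1 (adjusted p = 0.382 by Fisher's exact test).

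The 4 loci differed in how their regions were laid out. All 41 Mef2c regions had their summit in the gene body, with 38 in introns, and no other gene's start fell in its regions, while 8 of the 18 Mef2b regions and 3 of the 16 Mef2a regions held or lay within 1 kb of the start of another gene. The regions numbered 20.2 per 100 kb at Mef2c, 26.6 at Mef2b, 15.8 at Mef2d and 8.81 at Mef2a. Their median G+C content was 38.2% at Mef2c, 38.4% at Mef2a, 49.4% at Mef2d and 51.2% at Mef2b, against 44.4% over all kept regions. A peak in every library was found at 8 of 41 regions at Mef2c, 6 of 18 at Mef2b, 5 of 16 at Mef2a and 3 of 11 at Mef2d, that is 22 in all, while 25.0% of all kept regions were called in every library. The highest median fold enrichment was 37.5 at Mef2d +35.7 kb, near the start of 1700113A16Rik, 36.9 at the shared Mef2b 5′ end, 15.4 at Mef2a +150 kb, near the starts of Lysmd4 and 1700112J16Rik, and 11.98 at the Mef2c internal promoter. At 3 of the 4 loci the strongest region thus held or lay within 1 kb of the start of another gene.

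**Figure D1:**
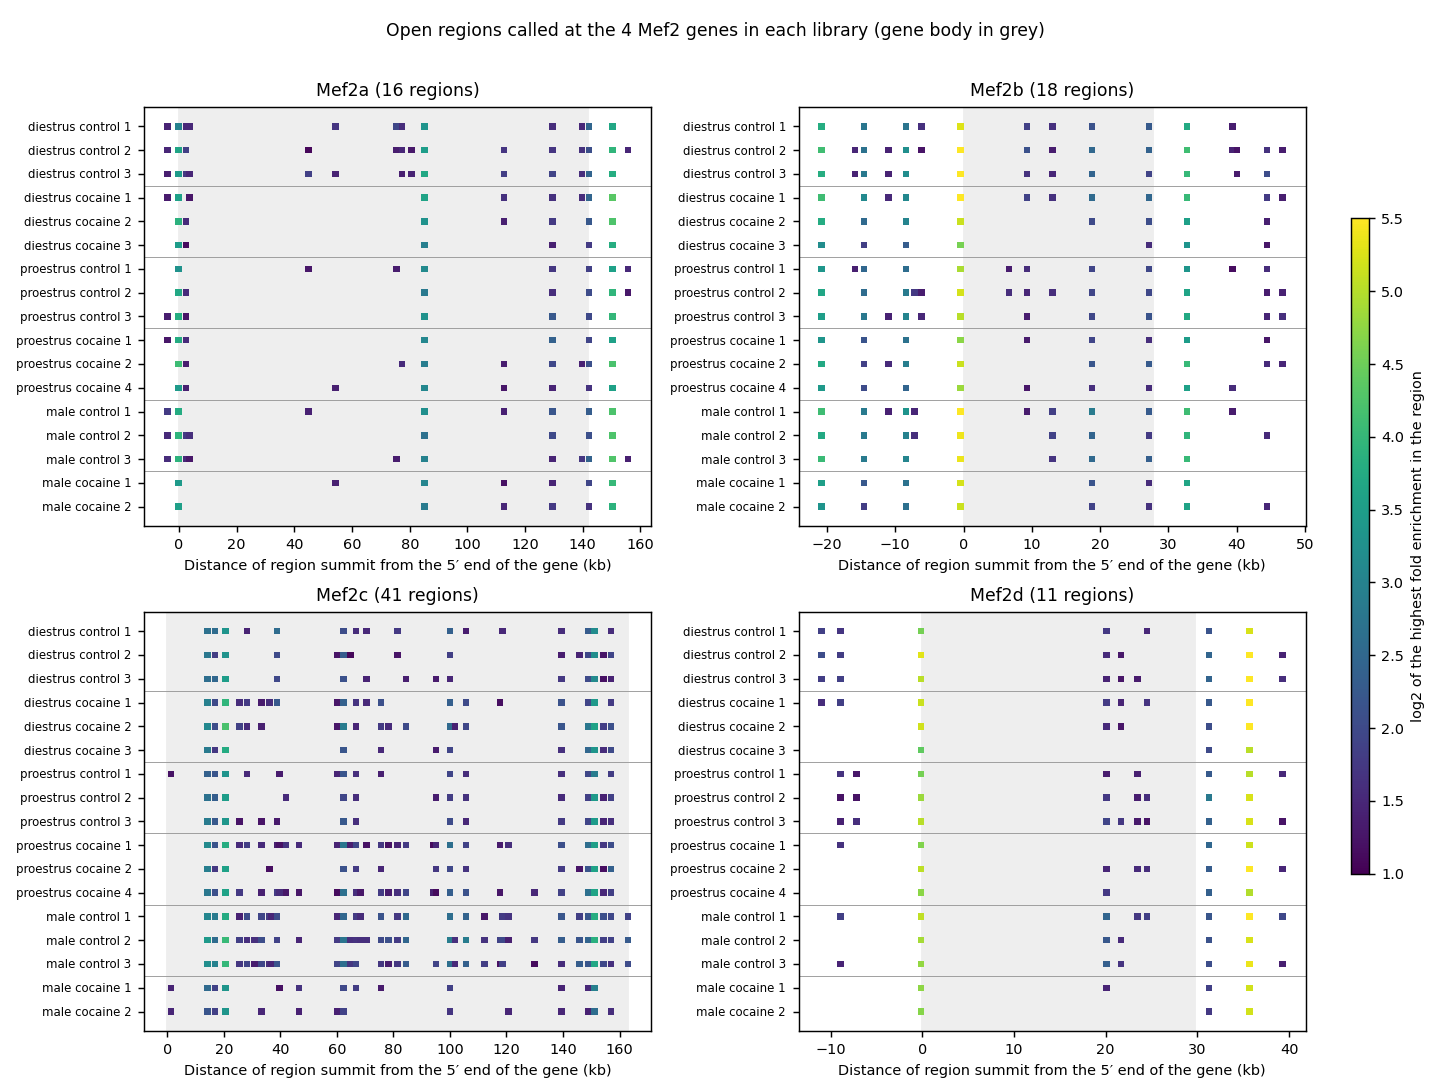
Peak calls at the 4 genes: each square is a region called in a library (rows, grouped by sex, stage and treatment), placed by the distance of its summit from the 5′ end of the gene in kb and coloured by the log2 of its highest fold enrichment. The Mef2c introns are filled in the 3 male controls (28 to 34 of 41 regions) and sparse in the 2 libraries from males after cocaine (13 and 14). The female controls called 14 to 16. Over all kept regions the called share was 68.3% in male controls and 39.3% in males after cocaine. The filter passed 12 of the 41 regions through the male controls alone.

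With all libraries, 3 regions at the Mef2 genes were gained or lost after cocaine in females. A region was counted as gained where every library after cocaine and no control of the same sex and stage called it, and as lost in the reverse case. With 3 against 3 libraries, or 2 against 3, no permutation test of 1 region can give a p under 0.1, so these are counts with no test. In diestrus 1 of 86 regions was gained, against 1.16% of all kept regions, and 1 was lost, against 1.26%. The gained region, Mef2c +75.6 kb (chr13:83579271-83579917, an intron), had fold enrichments of 4.27, 3.40 and 2.87 after cocaine and no peak in the 3 controls. It was also called in all 3 proestrus libraries after cocaine, in proestrus control 1, in all 3 male controls and in male cocaine library 1. The lost region, Mef2a +77.3 kb (chr7:67295382-67295871, a coding exon), was at 2.97, 2.79 and 2.59 in diestrus controls and was otherwise called in proestrus cocaine library 2 alone. It had passed the filter through the diestrus controls alone. In proestrus 0 regions were gained, against 2.45%, and 1 was lost, against 1.64%. That region, Mef2d −7.18 kb (chr3:88134969-88135388, upstream), was called in the 3 proestrus controls and in no other library, at 2.43, 2.32 and 3.03. It had thus passed the filter through the proestrus controls alone. These counts depended on single libraries: without diestrus cocaine library 1, 8 regions were lost in diestrus (7.34% of all), and without proestrus cocaine library 2, 6 were gained in proestrus (6.4% of all).

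In males Mef2c held most of the regions lost after cocaine. Of the 86 regions 13 were lost, which is 15.1%, and 1 was gained. Over all kept regions 16.8% were lost and 1.66% gained in males, so the members' count was close to that of the genome. Of the 13, 11 lay at Mef2c (26.8% of its 41 regions), 1 at Mef2a and 1 at Mef2b, the Mef2b start region at +13 kb. The filter had passed 12 of the 41 Mef2c regions through the male controls alone, against 0 at Mef2a, 1 at Mef2b and 0 at Mef2d. Such regions can be lost in males but not gained, so the filter itself raised the count of losses at Mef2c. The male cocaine libraries had the fewest peaks, and the part of this in the losses was not tested. With the same number of strongest peaks taken in every library, which left 48 Mef2 regions, 5 were lost (10.4%), against 9.35% of all regions. Leaving out male control 1 raised the count to 22, with 21.7% of all regions lost.

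The 3 lost Mef2c regions with the highest enrichment in the male controls lay in introns. Their high values there and the lack of a peak after cocaine follow from that choice. The values are fold enrichments with no scaling between libraries. Over the regions called in every library the median was 8.03, 7.44 and 7.46 in the male controls and 5.58 and 5.35 in males after cocaine. Mef2c +106 kb (chr13:83609430-83610129) was at 5.35, 7.30 and 5.16 in the male controls, above its highest value of 4.40 in any other library. Mef2c +84.4 kb (chr13:83588153-83588641) was at 5.74, 5.51 and 4.83 in the male controls and at 2.59 to 4.03 in the 4 female libraries that called it. Mef2c +146 kb (chr13:83649111-83650145) was at 3.57, 4.54 and 4.94 in the male controls and at 2.68 and 2.35 in the 2 other libraries that called it. That region had passed the filter through the male controls alone. None of the 3 had a peak in either library from males after cocaine. The 1 gained region, Mef2c +1.32 kb (chr13:83504944-83505595), was the only region within 1 kb of the first Mef2c start cluster. It was at 2.73 and 2.79 after cocaine and at 2.32 in proestrus control 1, and had passed the filter through the males after cocaine alone. Mef2a −4.08 kb, upstream of the gene, was lost from 3.44, 2.89 and 2.96 and was also called in all 3 diestrus controls.

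The number of Mef2c regions called per library followed the same order. It was 15 ± 1 (SD, n = 3) of 41 in diestrus controls and 15 ± 1 (n = 3) in proestrus controls, and 31.7 ± 3.2 (n = 3) in male controls. After cocaine it was 17.3 ± 4.6 (n = 3) in diestrus, 24.7 ± 7.6 (n = 3) in proestrus and 13.5 ± 0.7 (n = 2) in males. The lowest male control (28) lay above the highest female control (16), but 12 of the 41 regions had passed the filter through the male controls alone, so the filter itself raised the count in that group. The proestrus libraries after cocaine were split, with 30 and 28 in libraries 1 and 4 and 16 in library 2. Over all kept regions the called share was 68.3% in male controls, 60.5% and 53.2% in diestrus and proestrus controls, 54.9% and 56.9% in diestrus and proestrus after cocaine, and 39.3% in males after cocaine, so the whole libraries moved in males in the same direction.

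The other 3 genes had a different order. Mef2a was called at 13.3 ± 1.2 of 16 regions in diestrus controls and at 6.5 to 9 on average in each of the other groups. The lowest diestrus control (12) lay above every other library (at most 11). Over all kept regions the called share was 60.5% in diestrus controls and 39.3% to 68.3% in the other groups. Of the 16 Mef2a regions 6 had passed the filter through the diestrus controls alone, which raised the count there. Mef2d was called at 8.67 ± 1.15 of 11 regions in proestrus controls and at 5 ± 1.73 after cocaine, with no overlap between the 3 controls (8, 8 and 10) and the 3 libraries after cocaine (4, 7 and 4), while the share over all regions was 53.2% and 56.9%. The proestrus controls alone had passed 3 of the 11 regions. Mef2b was called at 12.7 ± 1.2 of 18 regions in proestrus controls and 9.33 ± 0.58 after cocaine, at 13.3 ± 2.5 and 9 ± 2.6 in diestrus and at 10 ± 2 and 7.5 ± 0.7 in males. In the last 2 of these the ranges overlapped at 1 diestrus library after cocaine (12) and at 1 male library after cocaine (8). Over all kept regions the called share went from 53.2% to 56.9% in proestrus, from 60.5% to 54.9% in diestrus and from 68.3% to 39.3% in males. The diestrus controls alone had passed 4 of the 18 regions, the proestrus controls alone 2 and the male controls alone 1. The filter thus raised the Mef2b counts in these control groups.

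**Figure D2:**
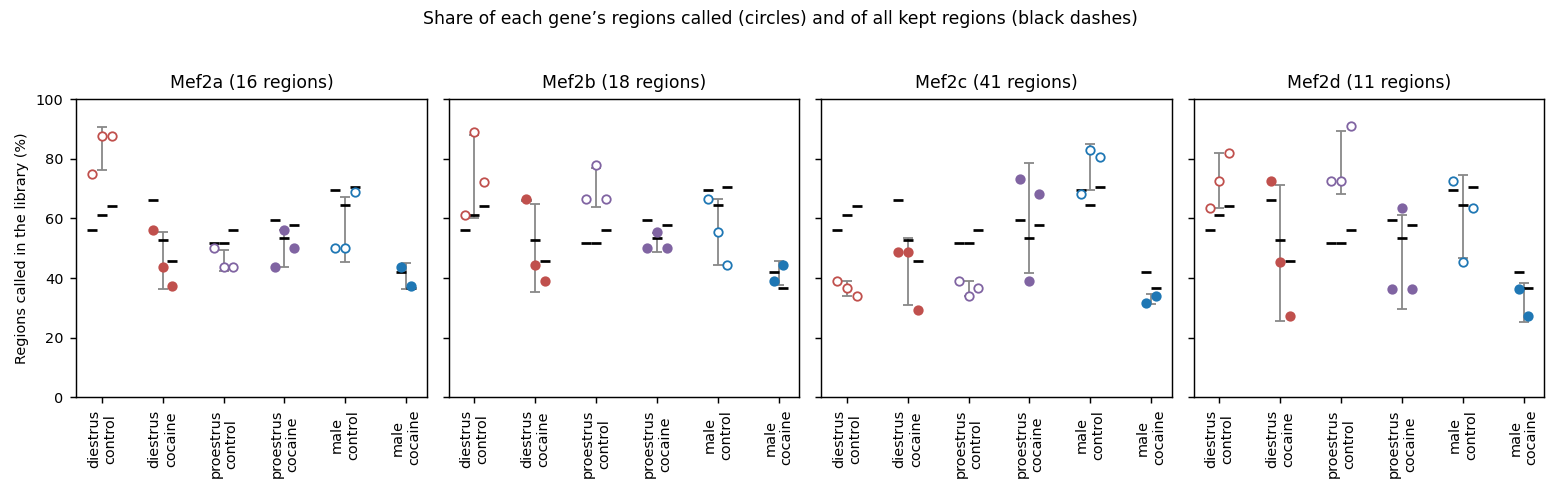
Share of each gene's regions called in each library (percent, circles; open for controls, filled after cocaine; bars span 1 SD on either side of the group mean) beside the share of all kept regions called in the same library (black dashes). Mef2c lies below the genome in all 6 female control libraries, at 34.1% to 39.0%, and at or above it in 2 of the 3 male controls. The filter passed 12 of the 41 Mef2c regions through the male controls alone, 1 through the diestrus and 0 through the proestrus controls alone. This added to the contrast.

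To compare the genes with the rest of the genome, the share of all kept regions called in a library was subtracted from that of each gene, and cocaine was compared with control by an exact permutation test within sex and stage (two-sided, 4000 assignments, adjusted over 11701 genes). None of the 4 genes passed. Mef2d had the lowest p, with a difference of −18.51 percentage points (exact permutation p = 0.015, adjusted p = 0.132), made of −18.6 in diestrus, −37.0 in proestrus and 0.151 in males. Mef2b was at −8.55 points (adjusted p = 0.418), Mef2a at −6.04 (adjusted p = 0.540) and Mef2c at 5.27 (adjusted p = 0.587). Among all genes 0.667% passed as higher and 0.393% as lower after cocaine, and 8.95% and 13.5% were at an unadjusted p under 0.05. The call for Mef2d passed without male control 2 (−20.5 points, adjusted p = 0.0399). Set against regions of the same G+C content, an alternative chosen after seeing the data, the Mef2c difference was −0.670 points in place of 5.27.

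The effect of cocaine on the called share was also compared between males and females, by a test added after the data were seen (exact permutation, two-sided, 2352 assignments, adjusted over the same genes). The assignments moved sex labels among the libraries after cocaine and among the controls, with both stages mixed. A sex difference already present in controls can therefore move this test. Mef2b passed, with 15.1 points in males and −20.3 in females, a difference of 35.4 (exact permutation p = 0.00128, adjusted p = 0.0263), where 10.6% of all genes passed in that direction and 3.19% in the other. The difference was 29 points at Mef2a (adjusted p = 0.0861), 28.0 at Mef2d (adjusted p = 0.156) and −30.96 at Mef2c (adjusted p = 0.110). At an unadjusted p under 0.05 were Mef2a and Mef2b, with 28.8% of all genes in that direction, and Mef2c, with 9.26%. As a share of the Mef2b regions themselves, with no subtraction of the library's share, the difference was 7.41 points (adjusted p = 0.791), and without any 1 of diestrus control 2, male controls 2 and 3 and male cocaine library 2 the adjusted p rose to at most 0.0820. The counts above show 10 ± 2 and 7.5 ± 0.7 Mef2b regions in male controls and after cocaine, so the male value of 15.1 points is relative to the larger drop of all regions in the same libraries. Of the 18 Mef2b regions, 4 and 2 had passed the filter through the diestrus and proestrus controls alone. The male controls alone had passed 1, and each group after cocaine alone 0. The filter itself thus favoured a fall after cocaine in females. With no replicate filter the difference was 19.4 points (exact permutation, adjusted p = 0.0736) and did not pass.

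The 22 regions called in all 17 libraries carried enrichment values that could be compared in level. The log2 of the highest fold enrichment in a region, minus the median of its library over the 36847 regions called everywhere, was compared between groups with limma, and adjusted p-values are Benjamini-Hochberg values over those regions. Without the subtraction, males after cocaine lay 0.40 lower than male controls in the median region (log2), so the differences below are relative to the other regions of the same library.

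In diestrus 2 of 22 regions changed, 1 in each direction, while 6.16% of all regions rose and 4.90% fell. The Mef2c internal promoter (Mef2c +20.7 kb, chr13:83522035-83529156) rose by 0.57 ± 0.14 (SE, log2; limma adjusted p = 0.0109). The shared promoter at the Mef2b 5′ end (chr8:70136497-70141787) fell by 0.43 ± 0.14 (limma adjusted p = 0.0436), from 38.2, 47.9 and 49.1 to 45.0, 35.3 and 23.9, so the fold enrichments of the groups overlapped. The first call was lost without diestrus cocaine library 2 (adjusted p = 0.0950) or library 3, and the second in 10 of the 17 fits that left out a library, with adjusted p up to 0.227. In proestrus 1 of 22 regions fell, Mef2b −14.6 kb (chr8:70124348-70126165, upstream of the gene), by 0.70 ± 0.17 (limma adjusted p = 0.0203), against 1.85% of all regions falling and 1.55% rising. Its fold enrichments were 5.596, 5.92 and 7.01 in controls and 4.51, 3.64 and 4.08 after cocaine, with no overlap. This call did not pass without any 1 of 5 of the 6 proestrus libraries (adjusted p up to 0.101).

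In males 1 of 22 regions changed, against 4% of all regions falling and 5.56% rising. Mef2c +151 kb (chr13:83654269-83658015, an intron near the 3′ end) fell by 0.53 ± 0.17 (limma adjusted p = 0.0445). Its fold enrichments were 14.02, 14.46 and 12.8 in male controls and 7.65 and 6.04 after cocaine. Relative to the library median (log2), the scale tested, these were 0.80, 0.96 and 0.78 in male controls and 0.46 and 0.18 after cocaine. On that scale the male controls were not the highest, as proestrus cocaine libraries 2 and 4 were at 0.99 and 1.02. Leaving out male cocaine library 2 gave an adjusted p of 0.354, and the call was lost in 9 of the 17 such fits.

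The direction at Mef2c was opposite in the sexes. All 8 Mef2c regions called everywhere had negative differences after cocaine in males (log2 −0.53 to −0.08, median −0.36), while 7 of 8 were positive in diestrus (median 0.30) and 7 of 8 in proestrus (median 0.22). The exception in both female stages was Mef2c +17 kb. At Mef2d and Mef2a all regions had positive differences in males, with medians of 0.28 over 3 regions and 0.19 over 5, and without the subtraction all of these were negative (medians of −0.20 and −0.29) while the 8 Mef2c regions stayed negative in males and 7 of 8 positive in each female stage. Dropping the subtraction lowered every difference in males and raised every one in females, so these Mef2c signs could not have changed. Adjusted for G+C content, the Mef2c medians were 0.22 in diestrus, 0.11 in proestrus and −0.40 in males. With the subtraction alone, the median difference over all 36847 regions was 0.01 in diestrus, −0.02 in proestrus and 0.09 in males. These are counts of members with no test, and regions of 1 gene are not independent.

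The difference between the sexes was tested for each region as the male effect of cocaine minus the mean of the diestrus and proestrus effects. It passed at 5 of 22 regions, with 3 lower in males (6.53% of all regions were) and 2 higher (11.9%). At Mef2c +151 kb it was −0.77 ± 0.20 (limma adjusted p = 0.00939), with female fold enrichments of 7.29 to 10.99 in controls and 10.2 to 12.4 after cocaine. Mef2c +100 kb (chr13:83603437-83605511) differed by −0.77 ± 0.25 (adjusted p = 0.0318), and Mef2c +14.3 kb (chr13:83517614-83519327) by −0.62 ± 0.22 (adjusted p = 0.0406). At Mef2a +85.2 kb (chr7:67286938-67289070) the effect was higher in males by 0.69 ± 0.20 (adjusted p = 0.0183), and at the shared Mef2b promoter by 0.56 ± 0.19 (adjusted p = 0.0357). At the Mef2c internal promoter it was −0.46 ± 0.19 (adjusted p = 0.0809), which did not pass. Of the 5 calls, that at Mef2c +151 kb was lost only without male cocaine library 2 (adjusted p = 0.102), that at Mef2a +85.2 kb without male control 2 or either male cocaine library (up to 0.119), and the other 3 in 8 to 10 of the 17 fits. Without subtraction of the library median the difference was 0.14 at Mef2a +85.2 kb (limma adjusted p = 0.707) and 0.01 at the shared Mef2b promoter (limma adjusted p = 0.977). The 3 Mef2c calls remained. That setting moved every difference down, with the median region going from 0.07 to −0.48. It could only enlarge negative differences and lower positive ones, so it is no check of either set of calls. Between diestrus and proestrus 0 of 22 regions differed in the effect of cocaine by limma, where 0% and 0.00543% of all 36847 regions passed as higher and lower in diestrus. At an unadjusted p under 0.05, 2 were higher and 0 lower, against 3.66% and 2.81% of all regions.

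**Figure D3:**
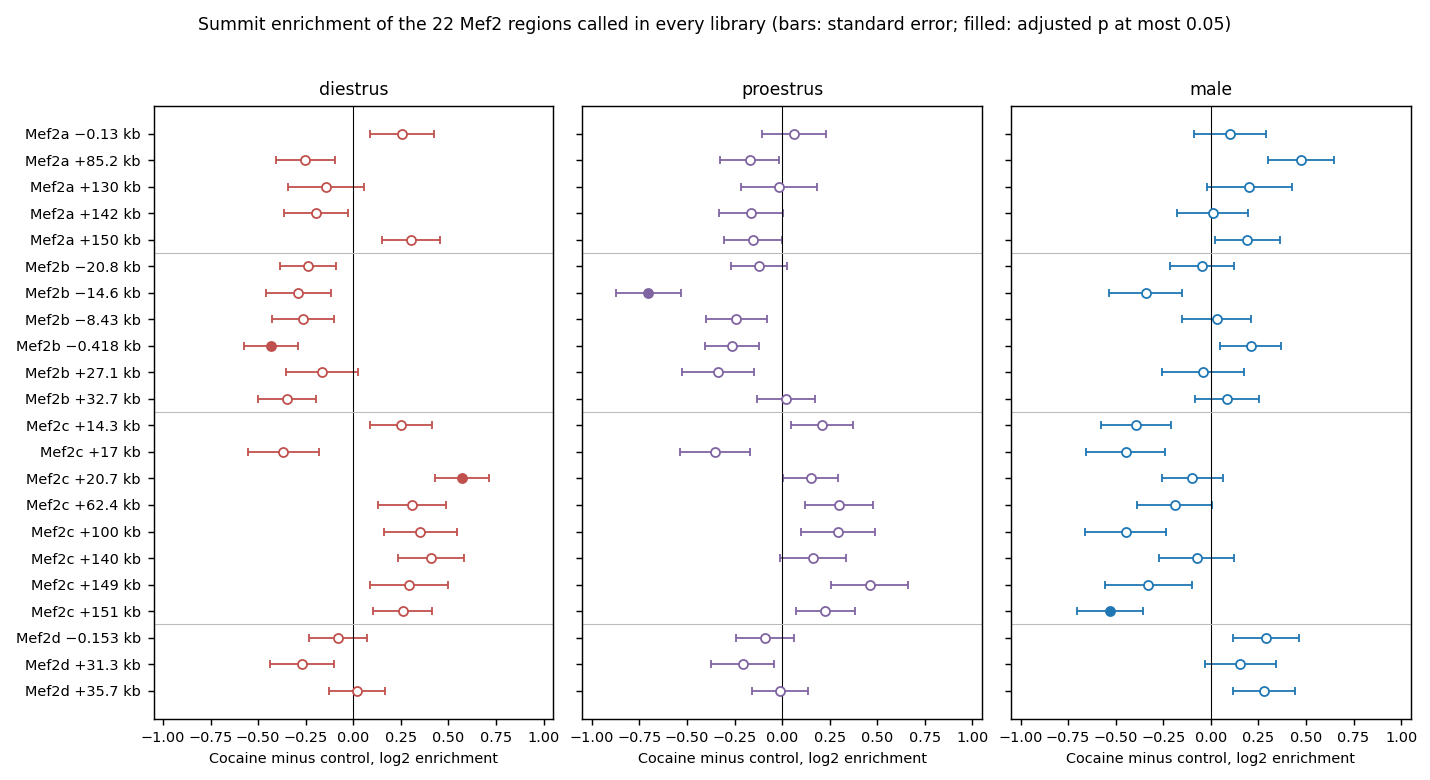
Difference in summit enrichment after cocaine (log2, relative to the library median) at the 22 Mef2 regions called in every library, in diestrus, proestrus and males, with bars of 1 standard error and filled points at an adjusted p of at most 0.05. The 8 Mef2c regions lie left of 0 in males and 7 of them right of 0 in each female stage.

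**Figure D4:**
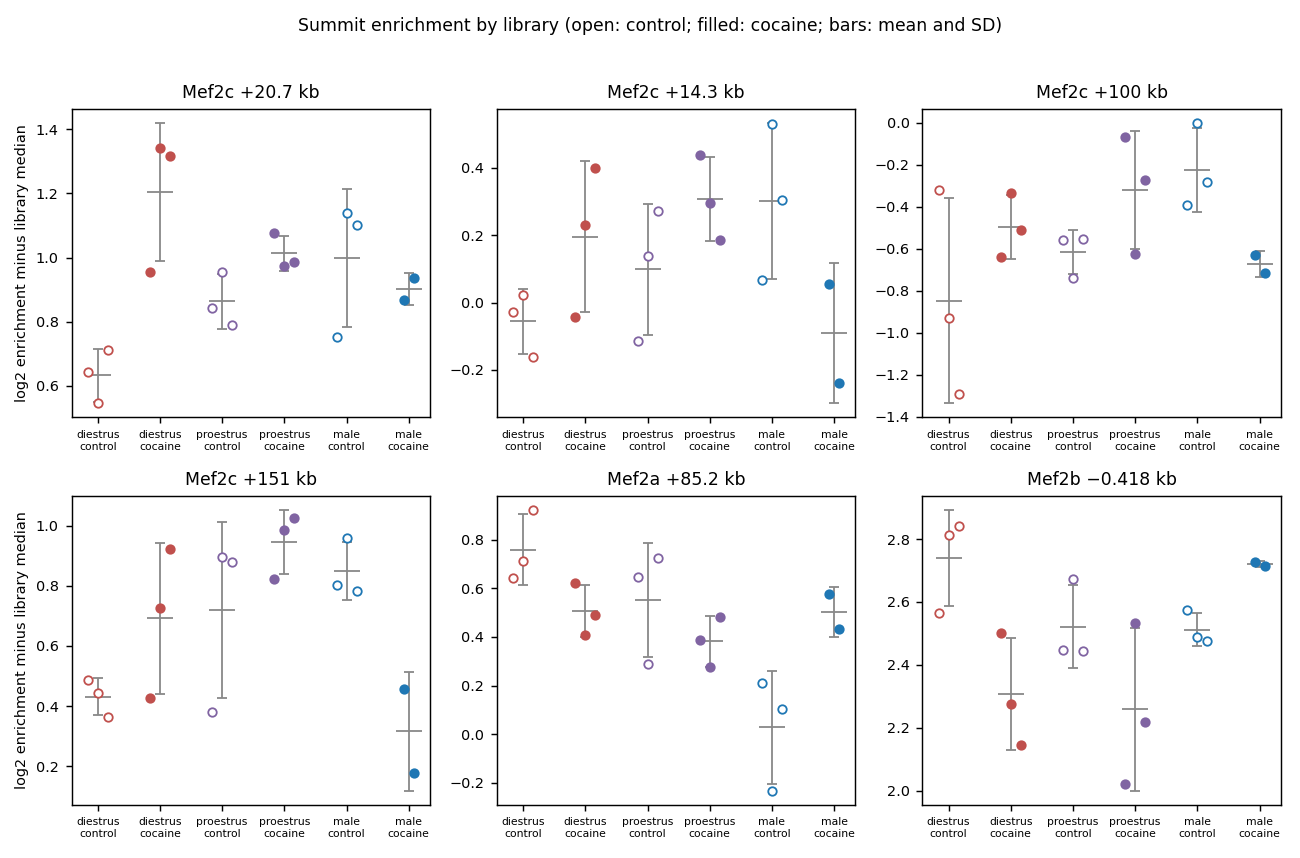
Summit enrichment of 6 Mef2 regions in each library (log2 minus the library median; open for controls, filled after cocaine; bars show the mean and SD). At Mef2c +151 kb the 2 libraries from males after cocaine are the lowest of the male libraries, and at Mef2a +85.2 kb they lie above the 3 male controls.

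Without cocaine, male and female controls were compared first by their calls. Male controls called 5 Mef2c regions that no diestrus control called (+25.5, +33.3, +75.6, +112 and +163 kb), and 6 Mef2c regions that no proestrus control called (+81.4, +84.4, +112, +119, +146 and +163 kb). These are 5.81% and 6.98% of the 86 regions, against 9.04% and 10.5% of all autosomal kept regions, so the members were not above the genome. In the reverse direction diestrus controls alone called 2 regions, Mef2d −11.0 kb and Mef2a +77.3 kb, against 3.06% of all, and proestrus controls 1, Mef2d −7.18 kb, against 1.43%. Mef2c +112 kb and Mef2c +163 kb, the latter over the 3′ untranslated exon, were called in the 3 male controls and in no other library. Their fold enrichments were 2.42, 3.17 and 3.51 and 3.70, 4.82 and 4.06. Mef2c +112, +119, +146 and +163 kb had passed the filter through the male controls alone. Mef2d −11.0 kb and Mef2a +77.3 kb had passed through the diestrus controls alone, and Mef2d −7.18 kb through the proestrus controls alone. The filter thus favoured these calls.

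In level, 3 of 22 regions differed between male and diestrus controls and 2 of 22 between male and proestrus controls. Mef2a +85.2 kb was lower in male than in diestrus controls by 0.73 ± 0.15 on the log2 scale (limma adjusted p = 0.000769) and lower than in proestrus controls by 0.52 ± 0.15 (adjusted p = 0.0192). Its fold enrichments were 9.31, 6.33 and 8.01 in male controls, 10.1, 11.2 and 12.97 in diestrus controls and 8.76, 7.08 and 9.86 in proestrus controls. Mef2c +100 kb was higher in male than in diestrus controls by 0.62 ± 0.19 (adjusted p = 0.0170), at 6.12, 7.44 and 6.15 against 5.16, 3.57 and 2.80, and Mef2c +151 kb by 0.42 ± 0.15 (adjusted p = 0.0456). Mef2d +31.3 kb, just past the end of the gene, was lower in male than in proestrus controls by 0.75 ± 0.17 (adjusted p = 0.00247). Among all regions 10.9% were higher and 13% lower in male than in diestrus controls, and 5.87% and 8.79% than in proestrus controls. The first of these calls held without any 1 library (adjusted p up to 0.0140), as did that at Mef2d (up to 0.0415). The call against proestrus controls at Mef2a +85.2 kb was lost without male control 2 or proestrus control 1 or 3 (up to 0.137), that at Mef2c +100 kb without male control 2 or diestrus control 2 or 3 (up to 0.184), and that at Mef2c +151 kb in 11 of 17 fits. Diestrus and proestrus controls differed at 0 of 22 regions by limma, while 0.214% and 0.103% of all regions were higher and lower in diestrus. At an unadjusted p under 0.05, 0 were higher and 2 lower in diestrus, against 6.22% and 8.2% of all regions. By calls, 3 regions were seen in every diestrus control and no proestrus control (Mef2d −11.0 kb, Mef2a +77.3 kb and Mef2a +140 kb), against 4% of all, and 1 the other way (Mef2d −7.18 kb), against 0.788%. Each of these regions had passed the filter through that control group alone.

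After cocaine fewer regions were called in males alone than among controls, at the Mef2 genes and over all autosomal kept regions. Against males, proestrus alone called more than among controls, in both sets. Diestrus alone, against males, went from 2 regions among controls to 0 at the Mef2 genes, and from 3.06% to 5.01% over all regions. Between diestrus and proestrus fewer regions were called on either side alone than among controls, in both sets. The male cocaine libraries had the fewest peaks, and the part of this in these counts was not tested. Males called 2 regions that no diestrus library called, Mef2c +1.32 kb and Mef2c +46.5 kb, against 1.65% of all, and diestrus 0 that no male library called, against 5.01%. Against proestrus, males alone called 1 (Mef2c +1.32 kb), against 1.34%, and proestrus alone 4 (Mef2a +2.48 kb, Mef2c +95.0, +106 and +154 kb), against 6.13%. Mef2c +1.32 kb had passed the filter through the males after cocaine alone, and Mef2c +95.0 kb through proestrus after cocaine alone. No region separated diestrus from proestrus after cocaine, where 0.243% and 0.519% of all regions did.

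The sequences around the summits of some of the regions named above are shown, not of all of them. Matches in capitals are to 4 motifs, searched on both strands within 100 bp of the summit. These were the MEF2 element (by name), AP-1 (TGACTCA or TGAGTCA), the cAMP response element (TGACGTCA) and the E-box CAGCTG. They do not overlap each other in the bases shown. All are given 5′ to 3′ on the strand of the gene.
Mef2c +75.6 kb, gained in diestrus, chr13:83579563-83579763, plus strand: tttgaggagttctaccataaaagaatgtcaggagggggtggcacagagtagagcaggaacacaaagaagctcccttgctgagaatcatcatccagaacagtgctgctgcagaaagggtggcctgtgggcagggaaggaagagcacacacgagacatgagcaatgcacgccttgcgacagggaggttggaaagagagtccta
Mef2c +84.4 kb, lost in males, chr13:83588325-83588525, plus strand: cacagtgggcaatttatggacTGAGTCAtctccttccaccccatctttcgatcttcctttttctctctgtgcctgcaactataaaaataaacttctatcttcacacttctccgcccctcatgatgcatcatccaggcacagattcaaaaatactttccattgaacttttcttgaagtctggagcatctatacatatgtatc
Mef2c +106 kb, lost in males, chr13:83609666-83609866, plus strand: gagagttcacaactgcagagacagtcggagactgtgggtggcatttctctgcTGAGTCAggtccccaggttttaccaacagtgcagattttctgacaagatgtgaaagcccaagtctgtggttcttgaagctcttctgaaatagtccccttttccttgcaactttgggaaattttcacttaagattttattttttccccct
Mef2c +146 kb, lost in males, chr13:83649818-83650018, plus strand: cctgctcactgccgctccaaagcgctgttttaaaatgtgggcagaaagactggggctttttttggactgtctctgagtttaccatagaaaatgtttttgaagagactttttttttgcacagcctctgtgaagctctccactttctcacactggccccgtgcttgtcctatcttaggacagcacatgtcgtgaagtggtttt
Mef2c +100 kb, male and female effects differ, chr13:83603972-83604172, plus strand: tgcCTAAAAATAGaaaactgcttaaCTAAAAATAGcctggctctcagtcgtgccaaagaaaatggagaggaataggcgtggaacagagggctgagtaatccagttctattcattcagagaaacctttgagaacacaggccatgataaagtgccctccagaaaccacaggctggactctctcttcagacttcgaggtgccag
Mef2c +151 kb, male and female effects differ, chr13:83655069-83655269, plus strand: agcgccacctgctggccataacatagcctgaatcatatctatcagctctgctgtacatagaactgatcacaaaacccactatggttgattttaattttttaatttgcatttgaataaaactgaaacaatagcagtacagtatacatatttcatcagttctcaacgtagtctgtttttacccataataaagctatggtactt
Mef2a +85.2 kb, male and female effects differ, chr7:67287586-67287786, minus strand: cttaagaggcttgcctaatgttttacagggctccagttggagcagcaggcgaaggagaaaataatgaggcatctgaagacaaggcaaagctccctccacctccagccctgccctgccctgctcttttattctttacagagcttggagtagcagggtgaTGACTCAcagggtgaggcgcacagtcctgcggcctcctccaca
The Mef2c +100 kb window held 2 matches to the MEF2 element, both upstream of the summit, and was the only one of the 41 Mef2c windows with any. AP-1 letters were found at Mef2c +84.4 kb, Mef2c +106 kb and Mef2a +85.2 kb, and, in a window not shown, at Mef2d +20.1 kb. No other Mef2 region gained or lost after cocaine, or past the limma threshold, held them, including the lost Mef2c regions whose windows are not shown. Over the 86 windows, 5 held the MEF2 element (5.81%, against 5.86% of all kept regions), 4 held AP-1 (4.65% against 10.1%), 0 held the cAMP response element (0.498% of all) and 10 held the E-box (11.6% against 12.1%). In the 6 RefSeq promoter windows of the 4 genes, of 300 bases each, 1 match was found, to the MEF2 element at Mef2a and outside the bases printed above, where 3.19% of 32851 promoter windows held it. A match is a description of letters and not a measured binding site.

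The genes around MEF2 in its pathway were counted in the same way. For 12 regulators and partners (the deacetylases Hdac4, Hdac5, Hdac7 and Hdac9, the corepressor Cabin1, the coactivator Ep300, the kinases Mapk7, Mapk14 and Camk4, and the calcineurin subunits Ppp3ca, Ppp3cb and Ppp3r1), 311 regions were kept and 73 were called in every library. In males 44 of the 311 were lost after cocaine (14.1%, against 16.8% of all kept regions) and 4 gained (1.29% against 1.66%). In diestrus 3 were lost (0.965% against 1.26%) and 4 gained (1.29% against 1.16%), and in proestrus 5 (1.61% against 1.64%) and 6 (1.93% against 2.45%). Among the called shares of the genes 0 of 12 passed the adjusted threshold of the exact permutation test. Of all genes 0.667% passed it as higher and 0.393% as lower. At an unadjusted p under 0.05, 1 was higher (Hdac9, 15.7 points, adjusted p = 0.122), against 8.95% of all genes. Lower were 3 (Hdac4, Cabin1 and Mapk14, adjusted p of 0.0941 to 0.136), against 13.5% of all genes. The median of the 12 was −7.97 points, against −4 over all 11701 genes. For 5 neuronal targets of MEF2 (Arc, Nr4a1, Homer1, Bdnf and Pcdh10) 78 regions were kept. In males 11 were lost (14.1%, against 16.8% of all kept regions) and 0 gained (against 1.66%). In diestrus 0 were lost (against 1.26%) and 2 gained (2.56% against 1.16%). In proestrus 3 were lost (3.85% against 1.64%) and 1 gained (1.28% against 2.45%). By the permutation test 0 of the 5 genes passed. Pcdh10, a protocadherin of synapse elimination, had the lowest p among them (18.8 points, adjusted p = 0.113).

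The genes whose called share, in excess of all regions, followed that of Mef2c most closely over the 17 libraries were Rapgef2 (Pearson r = 0.881), Sugct (r = 0.879) and Cdh12 (r = 0.866), of 1524 genes with at least 20 kept regions, whose median r was −0.170. All 4 values in a library share its depth and its base composition, and the correlation is given as a description.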

How the data were processed

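ATAC-seq peaks of 17 libraries in 6 groups were analysed. The authors trimmed adapters, aligned reads to mm10 with BWA-MEM and called peaks in each library separately with MACS2, whose version and options are not given in the sources used here. The deposited files hold, per peak, a fold enrichment (a ratio over the background of that library), −log10 p and q values, a whole-number score made from the q value, and the summit position. The authors did not scale these values between libraries. The submitters' processing notes also name featureCounts and DESeq2, and the counts they would give were not used here. As the deposited files hold no counts, a fit to read counts was not made and read depth is unknown. The number of peaks per library stands in its place, and the lowest fold enrichment called sets the limit of detection.

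Peaks on the autosomes and the X chromosome were merged across libraries (at least 1 bp shared), and regions with a peak in at least 2 libraries of a group were kept. Counts of regions called in 1 sex and not the other used autosomal regions, and the other comparisons of the sexes included the X chromosome. Members were regions overlapping a gene body or its 20 kb flanks. The mm10 sequence and the RefSeq promoter windows supplied for this build gave the sequences, and all 4 genes matched, in 6 windows. Called shares were tested by exact permutation for genes with at least 5 kept regions. Cocaine labels were permuted within sex and stage, and sex labels within treatment for the male against female difference. Single regions were tested by Fisher's exact test where 4 to 13 libraries called them. Summit enrichment was tested by limma over the 6 groups in 1 fit with an empirical Bayes variance trend on the mean. The adjusted p threshold was 0.05 (Benjamini-Hochberg). R 4.3.3 with limma 3.58.1 and Python 3.11.15 with SciPy 1.17.1, NumPy 2.4.6 and pysam 0.24.0 were used, and the scripts were tested on simulated data. Groups came from the sample titles. Nothing states that libraries beyond the pooling of 3 animals were independent in preparation, so p-values measure the spread between these libraries.

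The named regions were those within 1 kb of a start site of a member, the strongest of each gene, those gained or lost (the 3 strongest where a gene had more than 6) and those past the limma threshold. Regions called on 1 side between sexes or stages, or at an unadjusted p under 0.05 in Fisher's exact test, were also named after their values were seen. The members, the gene lists and the tests were chosen with earlier results of these data known, and 1 gene of the target list is not reported here. Alternatives were a stricter q, an equal number of peaks, no replicate filter, a cover of 50%, no flanks, other scalings, a replicate block and leaving out each library.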

Additional observations from a re-analysis of the deposited data

Results flagged for a closer look

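At 6 measures of the Mef2 genes the effect of cocaine in males minus that in females passed its threshold. The limma contrasts tested that difference itself. The permutation test of the called share moved sex labels within treatment, so sex differences among controls can move it too. For the called share of Mef2b, in excess of all regions, the male effect (15.1 percentage points) minus the female effect (−20.3) was 35.4 points (exact permutation, adjusted p = 0.0263). The filter had passed 4 and 2 of the 18 Mef2b regions through the diestrus and proestrus controls alone. Without that filter the difference did not pass (19.4 points). In summit enrichment the male effect, less the mean of the female effects, was 0.69 on the log2 scale at Mef2a +85.2 kb and 0.56 at the promoter shared by Mef2b, Borcs8 and Rfxank. It was −0.77 at Mef2c +151 kb, −0.77 at Mef2c +100 kb and −0.62 at Mef2c +14.3 kb. The male cocaine group had 2 libraries, which also had the fewest peaks, and the part of this in these differences was not tested beyond the settings given in the next section.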

How the results depend on the processing

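Of 182 values recomputed under alternatives other than leaving out a library, 135 were scored as the same. Among the rest, 35 counts moved by over 1.5 times, 6 tests no longer passed, 2 newly passed and 4 changed sign. Counts of regions were scored by their size alone, so the same count can come from different regions. Tests were scored as the same where they kept their direction and side of the threshold. The cause was not tested unless stated. The counts of regions seen in every library of 1 side and none of the other are small, so most moves are of 1 or 2 regions.

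With peaks of −log10 q of at least 5 there were 0 regions gained in diestrus, 0 lost in proestrus, 0 gained in males, 9 and 10 called in male and not in diestrus or proestrus controls, 0 in proestrus and not male controls, and after cocaine 0 and 0 in males and not diestrus or proestrus and 3 in diestrus and not males. With the same number of strongest peaks (75458) there were 2 lost in proestrus, 2 gained and 5 lost in males, 2 in proestrus and not diestrus controls, and after cocaine 1 in diestrus and not males, 2 in males and not proestrus, 1 in proestrus and not males and 1 in proestrus and not diestrus. With a cover of 50% there were 3 gained and 3 lost in proestrus, 8 in male and not diestrus controls, 1 in diestrus and not proestrus controls, and after cocaine 3 in diestrus and not males and 1 in proestrus and not diestrus. In the gene body alone there were 0 lost in proestrus, 1 in diestrus and not male controls, and 0 in proestrus and not male or diestrus controls.

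Leaving out each library gave, for diestrus females, 1 to 3 regions gained and 1 to 8 lost (8 without diestrus cocaine 1). For proestrus females it gave 0 to 6 gained (6 without proestrus cocaine 2) and 1 to 3 lost. For males it gave 0 to 2 gained (0 without male cocaine 1) and 15 to 22 lost (22 without male control 1). It gave 6 to 10 and 7 to 13 in male and not diestrus or proestrus controls, 2 to 5 and 1 to 3 the other way, and 3 to 6 and 1 to 3 between diestrus and proestrus controls. After cocaine it gave 2 to 3 and 0 to 1 in males and not diestrus or proestrus, 0 to 4 and 4 to 13 the other way, and 0 to 1 and 0 to 5 between diestrus and proestrus.

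The called share of Mef2a was 2.88 points at the stricter q, in place of −6.04. That of Mef2c, 5.27 points, was −0.822 at the stricter q, −0.670 against regions of the same G+C content and −5.01 as its own share. As own shares, Mef2b (−18.8 points) and Mef2d (−28.8 points) passed, both at an adjusted p of 0.0346. Over libraries left out the values ran from −7.60 to −1.97 at Mef2a, −11.1 to −4.69 at Mef2b, 2.41 to 8.49 at Mef2c and −21.8 to −15.9 at Mef2d. The male against female difference at Mef2b no longer passed at the stricter q (27.9 points), with equal peak numbers (24.9), with no replicate filter (19.4), with a cover of 50% (40.2), in the gene body (30.8) or as its own share (7.41), and it ran from 27.2 to 42.6 over libraries left out.

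With no subtraction of the library median, limma called 0 Mef2 regions after cocaine at either female stage and 9 for males, with 5 between male and diestrus controls and 6 between male and proestrus controls. The differences in diestrus were then 0.59 at Mef2c +20.7 kb (adjusted p = 0.0577) and −0.41 at the shared Mef2b promoter (adjusted p = 0.211). The uncentred median over all regions was −0.40 in males after cocaine, −0.48 for the male against female effect, 0.34 and 0.17 for male against proestrus and diestrus controls, and 0.18 for diestrus against proestrus controls. Adjusted for G+C content 4 regions changed in diestrus, and with regions called in at least 14 libraries 1. Leaving out libraries gave 0 to 5 calls for diestrus, 0 to 3 for proestrus, 0 to 2 for males, 0 to 8 for the male against female effect, 1 to 4 and 1 to 2 for male against diestrus and proestrus controls, and 0 to 0 for both comparisons of diestrus with proestrus.

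Same-numbered libraries shared only a number: the correlation of their deviations was −0.293, 0.0235 and −0.143 for the diestrus pairs, 0.195 and 0.116 for the proestrus pairs, and 0.0201 and 0.0163 for the male pairs. With the replicate number as a block 0 regions passed in proestrus in place of 1, Mef2a +85.2 kb (0.52, limma adjusted p = 0.0481) passed in males in place of Mef2c +151 kb (adjusted p = 0.0732), and the called shares were −8.90, −12.5, 4.77 and −15.7 points at Mef2a, Mef2b, Mef2c and Mef2d.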
